A study of Mus musculus with 4 samples.

Results

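Ccl3, Ccl4, Ccl5, Nkg7, Gzma, Gzmb, Gzmk, Prf1, Ctsw and Lyst were chosen by name as genes of cytotoxic granules and of the inflammatory chemokines secreted by activated effector lymphocytes. Of these 10 genes, 8 had a tested row among the 7252 tested rows of the authors' comparison. No row used here names Gzma or Gzmb, so these 2 granzymes are not analysed here. The samples were effector T cells sorted as CD5 high and CD5 low from mice of the genotype NOD.Foxp3-GFP, with 2 RNA libraries in each group and ages of 6 to 9 weeks per the labels. NOD mice develop autoimmune diabetes on their own, and the genotype name refers to a green fluorescent reporter of the regulatory T cell factor Foxp3, which both groups carried. The library titles name islets, while the tissue field of all 4 libraries names islets and spleen. CD5 is a surface receptor of T cells that dampens T cell receptor signalling. The question behind the comparison was how islet effector T cells sorted by CD5 differ in their RNA.

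Cytotoxic lymphocytes store perforin and granzymes, which are serine proteases, in secretory lysosomes. On contact with a target these granules fuse with the plasma membrane, perforin opens pores, and granzymes enter the target and cleave substrates that lead to cell death. CCL3, CCL4 and CCL5 are secreted chemokines that attract T cells, monocytes and NK cells. Islet-infiltrating T cells are known for such effector molecules, in CD8 cells as well as in CD4 cells of the Th1 type.

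CCL3, CCL4 and CCL5 are CC chemokines, named for a pair of neighbouring cysteines. The coding sequences of Ccl3 and Ccl5 below, from the GENCODE M21 transcripts, show this pair of cysteine codons in capitals. They are printed because the genes lie in one cluster on chromosome 11 and resemble each other, so that shared reads had to be considered.

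Ccl3: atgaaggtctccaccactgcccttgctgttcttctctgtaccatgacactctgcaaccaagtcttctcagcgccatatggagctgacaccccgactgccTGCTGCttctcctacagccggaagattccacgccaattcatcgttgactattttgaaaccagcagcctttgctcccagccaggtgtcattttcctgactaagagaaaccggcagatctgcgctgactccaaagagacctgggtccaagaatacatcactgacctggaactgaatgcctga

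Ccl5: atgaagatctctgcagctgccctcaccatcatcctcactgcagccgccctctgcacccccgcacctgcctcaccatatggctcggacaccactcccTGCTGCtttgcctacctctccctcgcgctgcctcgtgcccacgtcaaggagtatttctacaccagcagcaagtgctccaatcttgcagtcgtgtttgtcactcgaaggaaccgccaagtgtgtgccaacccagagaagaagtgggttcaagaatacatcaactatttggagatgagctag

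The cysteine pair is at codons 34 and 35 of Ccl3 and at codons 33 and 34 of Ccl5, counted from the start codon. The coding sequences encode 92 residues in Ccl3 and 91 in Ccl5. In a global alignment they were identical at 61.3% of the aligned columns. The longest stretch that both transcripts shared without a mismatch was 13 bases, so a longer exact match fits only 1 of them. Ccl4 was not compared with either gene, so reads that it may share with them were not examined.

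Among the granule genes, the RefSeq promoters of Lyst, Nkg7 and Prf1 are shown, each as the 250 bases before the annotated start (GRCm38.p6, the assembly also named mm10). Lyst had the only difference past the authors' threshold, and Nkg7 and Prf1 had the most abundant and the least abundant RNA of the other granule genes. Capitals mark the letters TGTGGT (RUNX) or GGTGTGA (T-box) on either strand. Lyst is read from the plus strand at chr13:13590159-13590408, Nkg7 from the plus strand at chr7:43436888-43437137, and Prf1 from the plus strand at chr10:61297586-61297835.

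Lyst: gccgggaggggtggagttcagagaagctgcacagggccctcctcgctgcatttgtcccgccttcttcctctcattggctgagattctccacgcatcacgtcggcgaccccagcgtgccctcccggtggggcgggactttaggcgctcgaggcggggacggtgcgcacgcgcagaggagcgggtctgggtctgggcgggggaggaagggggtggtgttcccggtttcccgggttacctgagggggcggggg

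Nkg7: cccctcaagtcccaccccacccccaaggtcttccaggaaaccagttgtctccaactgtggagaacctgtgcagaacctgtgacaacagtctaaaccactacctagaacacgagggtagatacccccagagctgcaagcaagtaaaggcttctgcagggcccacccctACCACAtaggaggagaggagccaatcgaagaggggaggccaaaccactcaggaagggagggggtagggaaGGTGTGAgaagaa

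Prf1: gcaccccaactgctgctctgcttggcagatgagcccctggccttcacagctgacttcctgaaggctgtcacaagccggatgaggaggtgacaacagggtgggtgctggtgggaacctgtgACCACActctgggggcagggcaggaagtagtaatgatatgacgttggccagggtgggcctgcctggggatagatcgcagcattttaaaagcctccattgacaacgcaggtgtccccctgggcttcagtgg

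The Nkg7 window held TGTGGT, read on the minus strand, at -83 to -78 and GGTGTGA at -13 to -7, and the Prf1 window held TGTGGT on the minus strand at -130 to -125, where -1 is the base before the start. The Lyst window held neither. Among 32851 mouse promoter windows of this length, 14.0% held TGTGGT and 3.33% held GGTGTGA. The AP-1 letters TGANTCA (6.75% of windows) and the TATA box letters TATAAA (12.4%) were in none of these 3 windows. No 2 matches overlapped. The Lyst window was 69.2% G and C with 22 CpG dinucleotides, the Nkg7 window 56.0% with 2 and the Prf1 window 58.8% with 4, against medians of 52.4% and 6 over all windows. RefSeq promoters were found for 5 of the 8 tested genes. A match in letters is a description and not a binding site.

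The level of each gene is given as FPKM, a fragment count scaled by transcript length and by library, which allows levels of different genes to be set side by side. The authors deposited 1 combined FPKM value per group, so no value below has an SD or n, the spread between libraries is not known, and the depth is unknown. The p-values and q-values are those of the authors' comparison, q being the p-value adjusted over all tested genes, and a gene is said to have risen or fallen only at a q-value under 0.05. Over the authors' deposited table, 39 of 7252 tested genes rose at this threshold (0.538%) and 16 fell (0.221%), together 0.758%. Of the 8 genes of the set, 0 rose and 1 fell, Lyst. At an unadjusted p under 0.05 the authors' deposited table held 2 higher genes of the set, Nkg7 and Ccl4, and 2 lower ones, Lyst and Prf1, where 5.58% of all tested genes were higher, 4.7% were lower and 10.3% passed in either direction. The set was chosen with results of these data known, so these shares are a description.

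Of the 8 genes, 6 had their higher value in CD5 high cells, namely all 3 chemokines, Nkg7, Ctsw and Gzmk. Over all tested genes, 49.1% had their higher value in CD5 high cells. The median log2 fold change (CD5 high over CD5 low) of the 8 genes was 0.35, where the 7237 tested genes with a finite fold had a median of -0.01 and quartiles of -0.24 and 0.24. The order of the authors' FPKM values in CD5 high cells was Ccl5, Nkg7, Ccl4, Ctsw, Ccl3, Gzmk, Lyst and Prf1. In CD5 low cells it was the same down to Ccl3, and Lyst then stood above Gzmk and Prf1. With no spread between libraries, neighbours in this order cannot be said to differ.

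**Figure D1:**
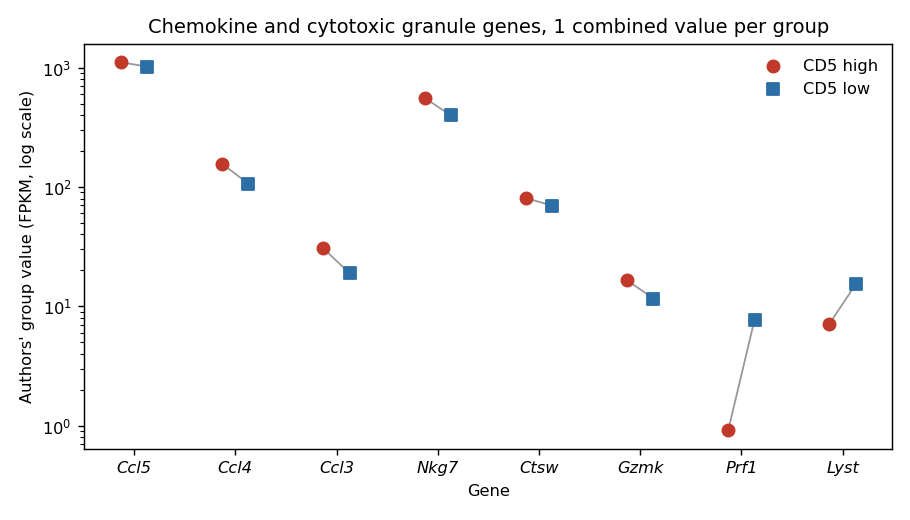
Authors' combined FPKM value (log axis) of the 8 tested genes, with 1 point for CD5 high (circle) and 1 for CD5 low (square) per gene and a grey line joining them. Ccl5 is highest in both groups, at 1106 FPKM in CD5 high and 1020 FPKM in CD5 low, and Prf1 and Lyst are the genes with the lower value in CD5 high, at 0.912 and 7.13 FPKM.

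Ccl5, whose product attracts T cells and monocytes, was the most abundant gene of the set. In the authors' deposited table it had 1106 FPKM in CD5 high cells and 1020 FPKM in CD5 low cells, a 1.08-fold difference (p = 0.546, q = 0.884). It ranked at place 123 of 7252 tested genes in CD5 high cells and at place 126 in CD5 low cells. The values of the groups for this RNA thus differed little. Ccl5 lies on the minus strand of chromosome 11 from 83525779 to 83530518 (mm10).

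Ccl4, which encodes a chemokine also known as MIP-1 beta, had 156 FPKM in CD5 high cells and 106 FPKM in CD5 low cells in the authors' deposited table. The 1.47-fold difference had an unadjusted p of 0.0392 and did not pass over all genes (q = 0.451). Ccl3, which encodes a chemokine that attracts monocytes and T cells, had 30.6 FPKM in CD5 high cells and 18.9 FPKM in CD5 low cells in the authors' deposited table, which is 1.62-fold (p = 0.138, q = 0.638). Both genes thus had higher values in CD5 high cells without passing the test. Ccl3, on the minus strand (83647843 to 83649378), and Ccl4, on the plus strand (83662584 to 83664683), are separated by 13206 bases, and GENCODE places no other gene over either locus.

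The ratio of Ccl4 to Ccl3 and the part of Ccl5 in the total are given as a description, since none of the 3 chemokines passed the test. Ccl4 was 5.11 times as abundant as Ccl3 by FPKM in CD5 high cells and 5.63 times in CD5 low cells. Ccl5 made up 85.6% of the summed FPKM of the 3 chemokines in CD5 high cells and 89.1% in CD5 low cells, and the sum was 1293 FPKM in CD5 high cells and 1145 FPKM in CD5 low cells.

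Among 25 other chemokine genes 4 were tested and 0 changed, with 0 at an unadjusted p under 0.05. These included Cxcl10, a ligand of CXCR3, with 25.1 FPKM in CD5 high cells and 13.8 FPKM in CD5 low cells (q = 0.545) in the authors' deposited table. Xcl1, which encodes lymphotactin, had 30.1 FPKM in CD5 high cells and 59.5 FPKM in CD5 low cells (p = 0.0584, q = 0.506) in the same deposited table of the authors. The chemokine genes outside the set thus lay in both directions.

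Nkg7, which encodes a membrane protein of cytotoxic granules, was the most abundant granule gene. The authors' deposited table gave 558 FPKM in CD5 high cells and 397 FPKM in CD5 low cells, a 1.41-fold difference with an unadjusted p of 0.0140 that did not pass over all genes (q = 0.332). Its level ranked at place 197 in CD5 high cells and at place 253 in CD5 low cells. Ctsw, the gene of cathepsin W, a papain-family protease of T and NK cells, had 80.8 FPKM in CD5 high cells and 69.7 FPKM in CD5 low cells in the authors' deposited table (1.16-fold, p = 0.391, q = 0.819). The difference for Ctsw was small and that for Nkg7 moderate, both with the higher value in CD5 high cells. Nkg7 is at chromosome 7, 43437138 to 43438246, plus strand, and Ctsw at chromosome 19, 5465240 to 5468498, minus strand (mm10).

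Gzmk, which encodes granzyme K, a trypsin-like granule protease, was the only granzyme among the rows used here. It had 16.5 FPKM in CD5 high cells and 11.6 FPKM in CD5 low cells in the authors' deposited table, which is 1.43-fold (p = 0.399, q = 0.823). These levels lay at the 41.2 percentile of tested genes in CD5 high cells and at the 26.2 percentile in CD5 low cells. Of 7 further granzyme genes, from Gzmc to Gzmn, 0 had a tested row among those used here. Gzmk is at chromosome 13, 113171874 to 113180897, minus strand.

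Prf1, which encodes perforin, was the lowest gene of the set and had its value mainly in CD5 low cells. The authors' deposited table gave 0.912 FPKM in CD5 high cells and 7.69 FPKM in CD5 low cells, a log2 fold change of -3.08, with an unadjusted p of 0.0221 and a q-value of 0.377. Only 5 tested genes with a finite fold had a lower log2 fold change. Prf1 did not pass over all genes, and the size of its fold depends on a CD5 high value below 1 FPKM. With 1 FPKM added to both values the log2 fold change was -2.18. The larger of the group values was 6.82 FPKM or more for all 7252 tested genes, and Prf1 reached 7.69 FPKM only in CD5 low cells, so a gene this low overall could be listed only with a difference. Prf1 is at chromosome 10, 61297836 to 61304263, plus strand.

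The ratios among the granule genes are given as a description, since neither Nkg7 nor Prf1 passed the test. Nkg7 was 612 times as abundant as Prf1 by FPKM in CD5 high cells and 51.6 times in CD5 low cells. That ratio rests on a Prf1 value of 0.912 FPKM in CD5 high cells, and with 1 FPKM added to both genes, an alternative chosen after seeing the data, it was 293 in CD5 high cells and 45.8 in CD5 low cells. Nkg7 over Gzmk was 33.8 in CD5 high cells and 34.2 in CD5 low cells. The summed FPKM of Nkg7, Ctsw, Gzmk and Prf1 was 656 in CD5 high cells and 486 in CD5 low cells, and Nkg7 made up 85.0% of it in CD5 high cells and 81.7% in CD5 low cells.

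Lyst fell in CD5 high cells. It encodes the lysosomal trafficking regulator, a very large BEACH domain protein whose loss gives the beige mouse and, in humans, Chediak-Higashi syndrome, with giant lysosomes and granules that are poorly secreted. In the authors' deposited table Lyst had 7.13 FPKM in CD5 high cells and 15.3 FPKM in CD5 low cells, 2.14-fold lower in CD5 high (log2 fold change -1.10, p = 5e-05, q = 0.0110). That p is the smallest in the authors' deposited table and was shared by 33 genes. Lyst spans 187032 bases of chromosome 13 (13590409 to 13777440, plus strand, mm10), and its longest coding transcript in GENCODE has 13181 bases and encodes 3787 residues, against 532 to 2474 bases for the longest coding transcripts of the other 7 genes. At equal FPKM a longer transcript yields more fragments.

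**Figure D2:**
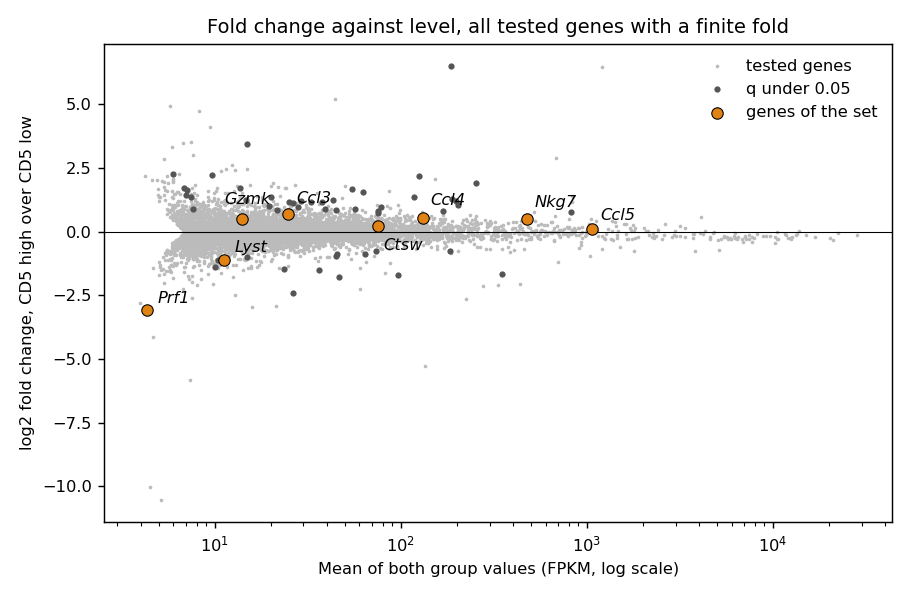
Log2 fold change, CD5 high over CD5 low, against the mean of both group FPKM values (log axis) for the 7237 tested genes with a finite fold (grey), genes with q under 0.05 (dark grey) and the 8 genes of the set (orange). Among the orange points only Lyst has a q-value under 0.05, and Prf1 lies at the low end of expression, where fold changes are widest. The larger group value was 6.82 FPKM or more in all tested genes, so genes with a mean below that appear only with a difference.

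Each gene was also set beside the 200 tested genes nearest to it in mean FPKM, as a description of how wide fold changes were at that level. For Lyst the quartiles of their log2 fold changes were -0.21 and 0.38, and 0 of the 200 had a lower value than Lyst. For Nkg7 the quartiles were -0.14 and 0.14 and 7 of 200 genes had a higher value, for Ccl4 they were -0.15 and 0.17 with 8 higher, and for Ccl3 -0.30 and 0.21 with 6 higher. Ccl5 had 56 of 200 genes above it, Ctsw 49 and Gzmk 26. For the most abundant genes the match in level was loose, as the 200 genes spanned 359 to 3155 FPKM for Ccl5 and 255 to 870 FPKM for Nkg7. Around Prf1 the quartiles lay farthest apart of the 8 genes, at -0.76 and 0.84, and 3 of 200 genes were lower. These 200 genes had means of 3.98 to 6.60 FPKM, while the larger group value of every tested gene was 6.82 FPKM or more. Genes with so low a mean were thus listed only with a difference. The spread around Prf1 and its place there follow in part from the listing.

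**Figure D3:**
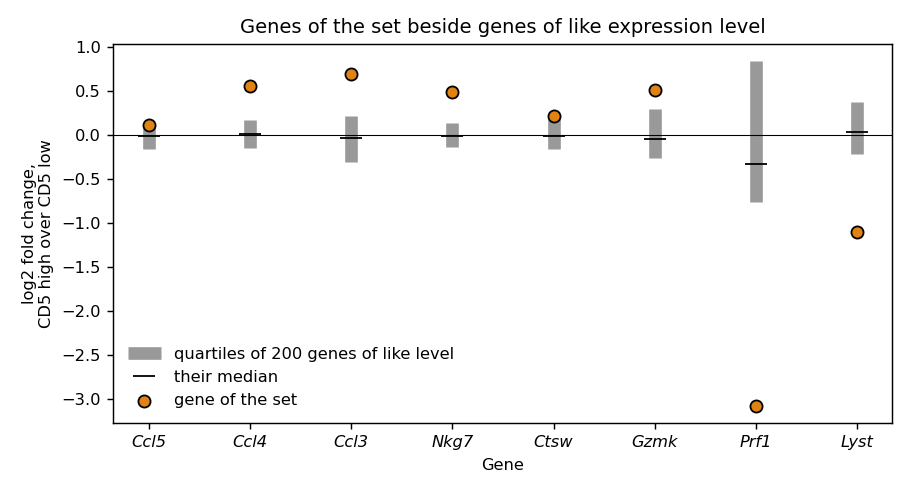
Log2 fold change, CD5 high over CD5 low, of each gene of the set (orange point) beside the range between the quartiles (grey bar) and median (black line) of the 200 tested genes nearest in mean FPKM. Ccl4, Ccl3, Nkg7 and Gzmk lie above their bar, Prf1 and Lyst below it, and Ccl5 and Ctsw at or near its upper end.

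Genes that act with the set were read from lists chosen for their roles, with results of these data known. In granule biogenesis and exocytosis, 44 of 62 genes were tested, 24 with a higher and 20 with a lower value in CD5 high cells, and the only change was the fall of Lyst (0 rose, 1 fell; median log2 fold change 0.10). At an unadjusted p under 0.05 the list held 8 higher genes and 1 lower, 9 of 44 against 10.3% of all tested genes. After Lyst, the lowest q-value of this list was 0.087, for a gene with its higher value in CD5 high cells. The most abundant members were Coro1a, an actin regulator, at 646 FPKM in CD5 high cells and 650 FPKM in CD5 low cells (q = 0.990), and Bloc1s1, a subunit of the BLOC-1 complex of lysosome-related organelles, at 332 FPKM in CD5 high cells and 301 FPKM in CD5 low cells (q = 0.878) in the authors' deposited table. The highest log2 fold change was 1.37, for Bloc1s5 of the same complex, at 8.53 FPKM in CD5 high cells and 3.31 FPKM in CD5 low cells (q = 0.451) in the authors' deposited table.

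Rab27a, Unc13d, Stx11 and Stxbp2, whose loss in humans impairs granule secretion, were singled out after their values were seen. Rab27a, a GTPase that docks granules, had 20.03 FPKM in CD5 high cells and 12.8 FPKM in CD5 low cells (p = 0.0295, q = 0.414) in the authors' deposited table. Unc13d, which encodes the priming factor Munc13-4, had 23.5 FPKM in CD5 high cells and 16.8 FPKM in CD5 low cells (p = 0.0520, q = 0.487) in the authors' deposited table. Stx11, a syntaxin of the granule fusion step, had 16.8 FPKM in CD5 high cells and 7.71 FPKM in CD5 low cells (p = 0.00585, q = 0.211), and its partner Stxbp2 had 28.8 FPKM in CD5 high cells and 23.4 FPKM in CD5 low cells (q = 0.733), both in the authors' deposited table. All 4 had their higher value in CD5 high cells, and 0 passed over all genes. Because they were picked with their values known, their shared direction is not a result. Of the 44 tested genes of the list they come from, 20 had a lower value in CD5 high cells. Among those 20 is Lyst, whose loss also leaves granules poorly secreted and which fell.

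Lyst was also set beside the other BEACH domain genes, of which Nsmaf, Lrba and Nbeal2 were tested. In the authors' deposited table Lrba, which protects CTLA-4 from lysosomal degradation, had 18.8 FPKM in CD5 high cells and 14.1 FPKM in CD5 low cells (q = 0.496). Nsmaf, a factor of sphingomyelinase activation, had 62.8 FPKM in CD5 high cells and 54.4 FPKM in CD5 low cells (q = 0.773), again in the authors' deposited table. Neither changed, and in this family the 1 gene that fell was Lyst (4 tested of 9, median 0.13).

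Of genes that process, store or inhibit granzymes, 7 of 12 were tested, 4 higher and 3 lower, and 0 changed (median 0.40). At an unadjusted p under 0.05 this list held 2 higher genes and 1 lower, against 5.58% and 4.7% of all tested genes. Srgn, the proteoglycan core serglycin that packs granzymes and perforin in the granule, had 730.2 FPKM in CD5 high cells and 554 FPKM in CD5 low cells in the authors' deposited table (p = 0.0296, q = 0.414). Serpina3g, a protease inhibitor of the serpin family, had 20.6 FPKM in CD5 high cells and 7.25 FPKM in CD5 low cells (p = 0.00215, q = 0.133) in the authors' deposited table. Ctsc, whose product cathepsin C removes the propeptide of granzymes, had 9.54 FPKM in CD5 high cells and 15.9 FPKM in CD5 low cells (p = 0.0358, q = 0.440) in the authors' deposited table. Cst3, a secreted cystatin, had 242 FPKM in CD5 high cells and 295 FPKM in CD5 low cells (q = 0.680) in the authors' deposited table and is also a marker of myeloid cells.

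Of 12 cathepsin genes other than Ctsw, 8 were tested and 0 changed (5 higher, 3 lower, median 0.17). At an unadjusted p under 0.05 this list held 1 lower gene, Ctsc, where 10.3% of all tested genes passed in either direction. Ctss, an endosomal protease of antigen-presenting cells, had 144 FPKM in CD5 high cells and 133 FPKM in CD5 low cells (q = 0.904) in the authors' deposited table. Ctsd, an aspartic protease of lysosomes, had 103 FPKM in CD5 high cells and 121 FPKM in CD5 low cells (q = 0.740), and Ctsz had 16.2 FPKM in CD5 high cells and 12.1 FPKM in CD5 low cells (q = 0.819) in the authors' deposited table. The values of these cathepsins thus lay in both directions.

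Death ligands and effector cytokines gave 6 tested genes of 9, 2 higher and 4 lower, and 0 changed (median -0.22). At an unadjusted p under 0.05 this list held 1 higher and 1 lower gene, against 5.58% and 4.7% of all tested genes. Ifng, the interferon gamma gene, had 98.3 FPKM in CD5 high cells and 69.8 FPKM in CD5 low cells (p = 0.0409, q = 0.457) in the authors' deposited table. Lta, which encodes lymphotoxin alpha, had 27.3 FPKM in CD5 high cells and 19.2 FPKM in CD5 low cells (q = 0.638), whereas Ltb had 280.0 FPKM in CD5 high cells and 347 FPKM in CD5 low cells (q = 0.616), in the authors' deposited table. Fasl, the Fas ligand of granule-independent killing, singled out after its value was seen, had 15.9 FPKM in CD5 high cells and 25.4 FPKM in CD5 low cells (p = 0.0396, q = 0.452) in the authors' deposited table. Prf1 and Xcl1 also had their lower value in CD5 high cells, and Ifng and Nkg7 their higher one, but none of these genes passed the test. With 1 combined value per group, genes that vary together cannot be identified.

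Among transcription factors of cytotoxic and Th1 cells, 15 of 19 were tested and 0 changed (9 higher, 6 lower, median 0.16). At an unadjusted p under 0.05, 5 were higher and 1 lower, against 5.58% and 4.7% of all tested genes. The lowest q-value of this list was 0.0553, just over the threshold, for a factor with its higher value in CD5 high cells. Nfil3, a bZIP factor needed for NK cells, had 25.1 FPKM in CD5 high cells and 11.8 FPKM in CD5 low cells (p = 0.00265, q = 0.149) in the authors' deposited table. Klf2, a factor of quiescence and recirculation, had 332 FPKM in CD5 high cells and 441 FPKM in CD5 low cells (p = 0.0224, q = 0.379) in the authors' deposited table. Tbx21, which encodes T-bet, the Th1 factor, was singled out after its value was seen and had 22.9 FPKM in CD5 high cells and 12.98 FPKM in CD5 low cells (p = 0.0116, q = 0.303) in the authors' deposited table. Of 19 surface molecules of cytotoxic effector cells 8 were tested and 0 changed, 4 higher and 4 lower (median 0.09, with 0 at an unadjusted p under 0.05). Fyb, an adaptor protein, had 329 FPKM in CD5 high cells and 331 FPKM in CD5 low cells (q = 0.990), and the adhesion receptor gene Cd2 had 245 FPKM in CD5 high cells and 213 FPKM in CD5 low cells (q = 0.773), in the authors' deposited table. Sh2d1a, the adaptor SAP, had the highest fold of that list, at 112 FPKM in CD5 high cells and 84.5 FPKM in CD5 low cells (q = 0.633), and Cd226 the lowest, at 17.4 FPKM in CD5 high cells and 24.1 FPKM in CD5 low cells (q = 0.614), in the authors' deposited table.

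**Figure D4:**
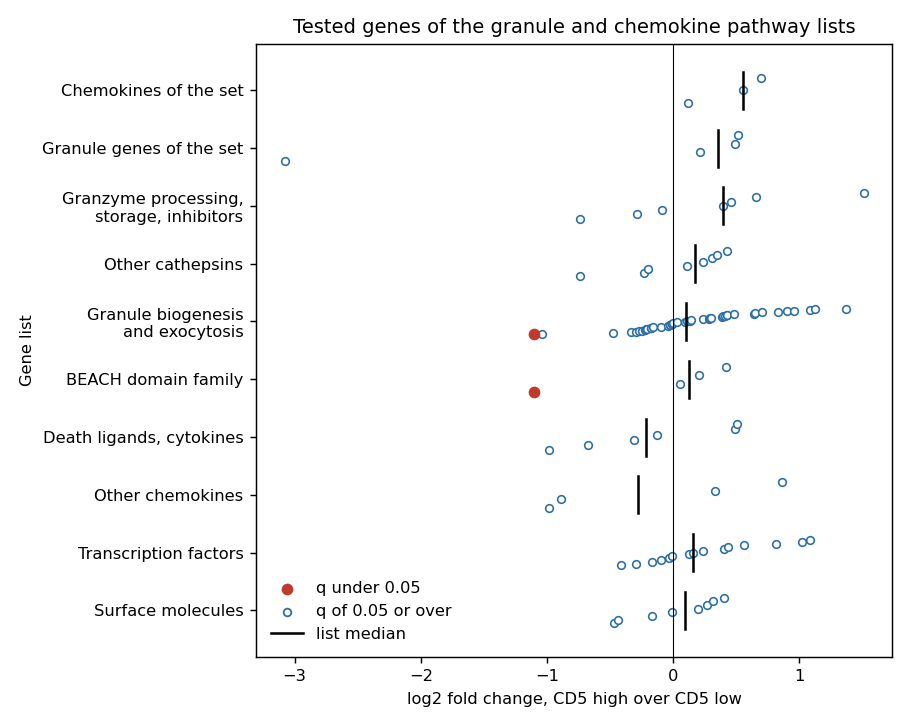
Log2 fold change, CD5 high over CD5 low, of each tested gene in 10 gene lists, with genes of q under 0.05 in red, the others as open circles, and the median of a list as a black line. The only red gene is Lyst, which is in both the exocytosis list and the BEACH domain list, and the open circles of the larger lists lie on both sides of 0.

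Markers of cells that also use granule genes were examined beside these values. The labelled T cells were seen in both groups, with Cd3g at 857 FPKM in CD5 high cells and 744 FPKM in CD5 low cells and Cd4 at 243 FPKM in CD5 high cells and 248 FPKM in CD5 low cells in the authors' deposited table. No tested row named Cd8a or Cd8b1. Of 19 markers of NK, NKT and gamma-delta T cells 3 were tested, all with lower values in CD5 high cells, and their summed level was 12.8 FPKM in CD5 high cells and 49.6 FPKM in CD5 low cells. These were Tyrobp, at 3.94 FPKM in CD5 high cells and 21.8 FPKM in CD5 low cells (p = 0.0478, q = 0.480), Klrd1, at 8.84 FPKM in CD5 high cells and 11.97 FPKM in CD5 low cells (q = 0.873), and Fcer1g, listed at 0 in CD5 high cells and at 15.8 FPKM in CD5 low cells (q = 0.0110), in the authors' deposited table. Fcer1g was the 1 of the 3 that passed the test. Lyst, which fell, and Prf1, which did not pass, also had their lower value in CD5 high cells, and the part of these markers in those values was not tested. Defining NK cell markers such as Ncr1 and Klrb1c had no tested row.

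Markers of macrophages, monocytes and dendritic cells had lower values in CD5 high cells in 8 of 9 tested genes of 23 listed, 5 of which fell, with a summed level of 637 FPKM in CD5 high cells and 1256 FPKM in CD5 low cells. Tyrobp and Fcer1g are in this list too. Markers of regulatory T cells were higher in CD5 high cells in 6 of 6 tested genes of 10, 4 of which rose, with a summed level of 725 FPKM in CD5 high cells and 351 FPKM in CD5 low cells. Of the markers of neutrophils and mast cells 2 of 10 were tested, S100a8 at 86.6 FPKM in CD5 high cells and 2.31 FPKM in CD5 low cells (q = 0.684) and S100a9 at 32.5 FPKM in CD5 high cells and 8.67 FPKM in CD5 low cells (q = 0.506) in the authors' deposited table. Their summed level was 119 FPKM in CD5 high cells and 10.99 FPKM in CD5 low cells, and neither passed the test. Of 12 markers of islet endocrine cells 5 were tested, 3 higher and 2 lower in CD5 high cells, and their summed level was 2794 FPKM in CD5 high cells and 321 FPKM in CD5 low cells. The insulin gene Ins1 rose, at 368 FPKM in CD5 high cells and 4.003 FPKM in CD5 low cells (q = 0.0186) in the authors' deposited table. The other insulin gene, Ins2, was at 2395 FPKM in CD5 high cells and 26.7 FPKM in CD5 low cells (q = 0.193), and somatostatin (Sst) at 6.86 FPKM in CD5 high cells and 263 FPKM in CD5 low cells (q = 0.0714), in the authors' deposited table. Of 27 markers of the exocrine pancreas 21 were tested, 17 of them lower in CD5 high cells with 1 that fell, and their summed level was 2026 FPKM in CD5 high cells and 2191 FPKM in CD5 low cells. Only 1 marker each was tested for B cells, at 14.01 FPKM in CD5 high cells and 10.96 FPKM in CD5 low cells, and for endothelial and stromal cells, at 16.6 FPKM in CD5 high cells and 21.3 FPKM in CD5 low cells, and neither passed; no marker of erythroid cells or platelets had a tested row. The chemokines and Nkg7 also had higher values in CD5 high cells, without passing the test, and the part of any of these marker lists in those values was not tested. In these bulk samples, fewer cells of a type and less RNA per cell cannot be told apart.

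The genes next to the set were read from the same table. Within 250 kb of the 8 loci there were 29 tested genes outside the set, 17 higher and 12 lower in CD5 high cells. Of these 29 genes 0 changed, and the median log2 fold change was 0.04. At an unadjusted p under 0.05 there were 3 of 29, near the 10.3% of all tested genes. In the chemokine cluster on chromosome 11, Taf15, a gene of an RNA-binding protein 19039 bases from Ccl5, had 18.3 FPKM in CD5 high cells and 26.0 FPKM in CD5 low cells (q = 0.583) in the authors' deposited table. Heatr6, 88954 bases from Ccl4, had 13.2 FPKM in CD5 high cells and 18.4 FPKM in CD5 low cells (p = 0.0426, q = 0.460) in the authors' deposited table. Both had lower values in CD5 high cells, whereas the 3 chemokines between them had higher ones. Near Lyst only Tbce and B3galnt2 were tested, which share 1 locus 177234 bases away, with Tbce at 24.7 FPKM in CD5 high cells and 19.6 FPKM in CD5 low cells (q = 0.819) and B3galnt2 at 5.98 FPKM in CD5 high cells and 8.19 FPKM in CD5 low cells (q = 0.787) in the authors' deposited table. Eif4ebp2, 128234 bases from Prf1, had 20.2 FPKM in CD5 high cells and 31.3 FPKM in CD5 low cells (p = 0.0424, q = 0.460), and Etfb, 5826 bases from Nkg7, had 183 FPKM in CD5 high cells and 159 FPKM in CD5 low cells (q = 0.810), in the authors' deposited table. The remaining tested neighbours were Ap2b1, AI450353 and AA465934 near Ccl5, Skiv2l2 and Esm1 near Gzmk, and Sgpl1 near Prf1. Esm1 lies within the longer GENCODE model of Gzmk (113171608 to 113225908), though outside the locus given for Gzmk in the authors' table. Near Ctsw the tested genes were Pacs1, Sf3b2, Banf1, Eif1ad, Sart1, Drap1, AI837181, Ccdc85b, Fibp, Cfl1, Rnaseh2c, Kat5, Rela, Sipa1, Pcnxl3, Map3k11 and Ehbp1l1. Their log2 fold changes in the authors' deposited table ran from -0.32 for Banf1 to 0.78 for Ehbp1l1 (p = 0.0184, q = 0.360), with Ctsw itself at 0.21.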

How the data were processed

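Libraries of CD5 high and CD5 low effector T cells (2 each) were compared. Per the labels' protocols, RNA from Triton X-100 lysates was reverse transcribed, and the amplified cDNA went into Nextera XT libraries, a kit that does not mark strand. Per the submitters' processing notes, TopHat 1.0.0 and Cufflinks were used with mm10. Per the file headers, which are those of a Cuffdiff gene test, the authors deposited 1 FPKM value per group and gene, with a log2 fold change, a score (the test statistic), a p-value and its q-value. The Cufflinks version, the annotation and the way libraries were scaled and combined were not given in the sources used. Nothing says that libraries came from separate animals, so the p-values may measure technical spread. The deposited log2 fold change was that of CD5 high over CD5 low, with no pseudocount (largest difference 5.1e-05). Of 7404 rows, 152 had no test and were left out, and 1 further line is not analysed here. The limma test planned for values per library was not run, since the table holds none.

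The authors' q-value under 0.05 was the call. Counts, medians, ranks, neighbours within 250 kb and the 200 genes of like level were computed with Python 3.11.15 and pandas 2.3.3, and alignments with Biopython 1.88. Coordinates are the authors', written 1-based. The adjustment and quantile normalization were tested on simulated data. The set, 12 pathway lists and 11 marker lists were chosen with earlier results of these data known. Some genes and 1 sequence are not reported here. Named otherwise from each pathway list were the changed genes, the largest rise and fall and the 2 most abundant, and from the neighbours every tested gene. Alternatives were 1 FPKM added, centring, quantile normalization, a mean of at least 20 FPKM, removal of marker genes, and other thresholds.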

Additional observations from a re-analysis of the deposited data

How the results depend on the processing

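No paired analysis was possible because the authors' table holds 1 combined value per group, so neither the replicate numbers 3 and 4 of the titles nor leaving out a library could be used. Adding 1 FPKM, centring on the median of all genes and quantile normalization gave 24 log2 fold changes of the 8 genes, all of the same sign as deposited. Prf1 moved most, to -2.18 with 1 FPKM added and to -2.50 after quantile normalization. An alternative was counted as moved when its sign differed, when it shifted by over 1.5-fold, or when a count differed by over 1.5 times. With p-values adjusted over genes with a mean of at least 20 FPKM, 0 genes of the set were lower, because Lyst is below that mean; without marker genes of other cells Lyst kept its call (adjusted p = 0.0124). At a q-value under 0.1 the set had the same calls. At an unadjusted p under 0.05 it had 2 higher and 2 lower. The pathway lists then held 1 chemokine of the set, 2 granule genes of the set, 3 genes of granzyme processing, 1 other cathepsin, 9 exocytosis genes, 2 death ligands or cytokines and 6 transcription factors. Of all tested genes, 10.3% passed at that threshold. At a mean of at least 20 FPKM only Xcl1 was left of the other chemokines, so their value of -0.98 is that of Xcl1 alone (q = 0.506). The median of the transcription factors was -0.0207 at this setting, since low genes were left out. With 1 FPKM added, chosen after seeing the data, the ratio of Nkg7 to Prf1 moved to 293 in CD5 high cells and was 45.8 in CD5 low cells. In all, 55 of 70 alternative values stayed within these limits and 15 moved, 1 of which is not reported here. Unknown depth limits the low genes most, Prf1 above all.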
